A study of Mus musculus with 16 samples.

Results

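Fpr1 and Fpr2, the formyl peptide receptors, and 4 C-type lectin receptors of myeloid cells, Clec4e (Mincle), Clec4d (MCL), Clec4n (Dectin-2) and Clec7a (Dectin-1), were followed across whole kidneys of 16 mice. The 6 genes were chosen by measured values: Fpr1, Fpr2 and Clec4e had been seen higher in Fcgr2b-/- than in wild-type kidneys of these same arrays, and the other 3 belong to the same lectin family. A probe was counted when it is annotated to a transcript of one of these genes. That rule found 6 probes for 5 of the 6 genes, among 22911 gene symbols on the array, and no probe for Clec7a. Values of Fcgr2b-/- against wild type are therefore given below as a description, with no test.

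The study compared 4 genotypes at 6 months of age, with 4 mice each and 1 mouse per array. Wild-type (WT) and Sting gt/gt mice were on C57BL/6, while Fcgr2b-/- and double-deficient Fcgr2b-/-.Sting gt/gt mice were on a mixed 129/C57BL/6 background. The labels call the Fcgr2b-/- group lupus mice and name the Fcgr2b deletion alone, and the study's own figure heads that group as carrying 1 Goldenticket Sting allele. Sting gt is the Goldenticket allele, a missense change that abolishes STING function while its transcript can still be made. Because strain follows Fcgr2b genotype in every mouse, the deletion and the strain background cannot be told apart in any value that sets Fcgr2b-deficient mice against the other 8.

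Formyl peptide receptors couple to Gi proteins and bind N-formylated peptides, which bacteria make and which mitochondria release when cells are damaged. Fpr2 also binds annexin A1 and serum amyloid A. On neutrophils, monocytes and macrophages these receptors drive chemotaxis and the oxidative burst. Mincle binds trehalose dimycolate of mycobacteria and SAP130 from dead cells, MCL pairs with Mincle, Dectin-2 binds alpha-mannans and Dectin-1 binds beta-glucans. Mincle, MCL and Dectin-2 signal through the Fc receptor gamma chain, Syk and CARD9 to NF-kB. Fcgr2b encodes the inhibitory Fc receptor of B cells and myeloid cells, and STING is the cyclic dinucleotide sensor upstream of type I interferon.

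The measured receptor genes lie in 2 clusters. Fpr1 and Fpr2 are immediate neighbours on chromosome 17 with 0 RefSeq genes between them, and Clec4n, Clec4d and Clec4e follow one another on chromosome 6, also with 0 between each pair. Clec7a lies on the same chromosome with 229 genes between it and Clec4e. Start-site sequences were in the RefSeq table (GRCm38.p6) for 5 of the 6 genes; Clec4n was the missing one. The 250 bases before the start are printed here for the 4 measured genes that have them, because these neighbours were high and low in the same mice. They are Fpr1 (chr17:17883940-17884189, minus strand), Fpr2 (chr17:17887574-17887823, plus strand), Clec4e (chr6:123289872-123290121, minus strand) and Clec4d (chr6:123261857-123262106, plus strand). Capitals mark matches to the PU.1 core GAGGAA, which reads TTCCTC on the other strand, and to the C/EBP motif TTGNNCAA.
Fpr1: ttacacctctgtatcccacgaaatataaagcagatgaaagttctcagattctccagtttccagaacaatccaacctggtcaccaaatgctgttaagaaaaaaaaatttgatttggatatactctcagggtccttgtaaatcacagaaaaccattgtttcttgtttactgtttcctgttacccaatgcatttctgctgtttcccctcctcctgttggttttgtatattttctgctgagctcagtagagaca
Fpr2: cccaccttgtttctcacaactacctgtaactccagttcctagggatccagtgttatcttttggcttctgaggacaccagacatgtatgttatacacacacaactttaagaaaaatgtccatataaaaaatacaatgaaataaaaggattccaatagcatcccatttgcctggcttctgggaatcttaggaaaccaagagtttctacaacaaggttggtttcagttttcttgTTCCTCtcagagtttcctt
Clec4e: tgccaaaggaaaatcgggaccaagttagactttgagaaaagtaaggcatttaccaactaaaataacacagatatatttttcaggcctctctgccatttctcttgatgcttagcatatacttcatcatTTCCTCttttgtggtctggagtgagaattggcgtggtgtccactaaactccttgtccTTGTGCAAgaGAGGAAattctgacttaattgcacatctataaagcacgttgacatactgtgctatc
Clec4d: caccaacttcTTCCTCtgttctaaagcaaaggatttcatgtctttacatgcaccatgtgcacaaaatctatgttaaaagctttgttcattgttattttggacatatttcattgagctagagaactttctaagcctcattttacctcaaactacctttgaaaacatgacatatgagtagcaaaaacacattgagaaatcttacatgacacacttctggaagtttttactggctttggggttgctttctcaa
Clec4e carries 2 PU.1 cores, at bases -123 to -118 and -56 to -51, and between them a C/EBP match at -66 to -59. Clec4d carries 1 PU.1 core at -240 to -235, Fpr2 carries 1 at -19 to -14, and Fpr1 carries none. Of the 4 windows, Clec4e alone holds the C/EBP letters. NF-kB (GGGANTTTC), AP-1 (TGANTCA) and the interferon-stimulated response element (GAAANNGAA) had no match in these 4 windows. Both strands were searched, no matches overlap, and the motifs were chosen after the sequences had been seen. Among 32851 RefSeq windows of this length, 23.3 percent hold the PU.1 core, 5.65 percent the C/EBP motif, 0.941 percent the NF-kB motif, 6.75 percent the AP-1 motif and 7.13 percent the interferon motif. A match is a description, not a site or a cause.

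The labels were first checked with the targeted gene. Levels here are log2 signals relative to the 75th percentile of the same array, so 0 is that percentile's own level, and mice are listed as replicates 1 to 4. The brighter Fcgr2b probe read 1.63, 1.35, 1.07 and 0.60 in WT, 1.0, 0.51, 0.17 and -0.66 in Sting gt/gt, 0.21, -0.53, -0.47 and -0.32 in Fcgr2b-/-, and -0.59, 0.00, -0.93 and -0.80 in Fcgr2b-/-.Sting gt/gt. All 8 deficient mice lie below all 4 WT mice, but Sting gt/gt replicates 3 and 4 lie within the range of the deficient ones, and signal remained well above background on all 16 arrays. On the second Fcgr2b probe, too, the deficient mice (-2.35 to -1.07) lie below WT (-0.91 to 0.00), and Sting gt/gt replicates 3 and 4 (-1.54 and -1.90) lie among them. Whether these probes lie inside the deleted part of Fcgr2b was not checked, and the Sting1 probe checks nothing, because a missense allele still makes a transcript. Its means were -0.76 in WT, 0.67 in Fcgr2b-/-, -0.44 in Fcgr2b-/-.Sting gt/gt and -0.23 in Sting gt/gt. Kidney tissue was evident on every array: 12 of 12 kidney epithelium markers were well above background in each mouse, with Kap the brightest (9.34 in WT, 9.13 in Fcgr2b-/-, 9.22 in the double-deficient group and 9.34 in Sting gt/gt, on the same log2 scale).

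Fpr1, the high-affinity formyl peptide receptor, was dark in every mouse with intact Fcgr2b and measurable in every mouse without it. Its levels were -5.42, -7.11, -6.82 and -7.54 in WT and -6.02, -5.54, -6.96 and -6.86 in Sting gt/gt, against 0.67, -2.25, -3.00 and 0.28 in Fcgr2b-/- and -2.27, -3.14, -3.06 and -3.64 in Fcgr2b-/-.Sting gt/gt. The 8 deficient mice all lie above the 8 others, and Fcgr2b-/- replicates 1 and 4 stand far above replicates 2 and 3. Signal counted as well above background, a call the scanner software makes for each spot, on 8 of 8 deficient arrays and 0 of 8 others. Across all 56605 probes, 2 show that split (0.00353 percent), Fpr1 and Acod1, and 4 are well above background on 8 of 8 deficient and at most 1 of the 8 other arrays (0.00707 percent), Clec4e among them. Both counts include the arrays in which Fpr1 and Clec4e were chosen, so they stand for scale alone and support nothing.

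Fpr2, which also serves annexin A1 and serum amyloid A, has 2 probes. The brighter read -0.46, -0.75, -1.05 and -1.25 in WT, -0.84, -0.91, -1.03 and -0.90 in Sting gt/gt, 3.27, 0.74, -0.07 and 2.63 in Fcgr2b-/-, and 0.30, 0.75, 0.01 and -0.44 in Fcgr2b-/-.Sting gt/gt. It was well above background in all 16 mice, and its deficient and other mice are separated by 0.02 alone. The 2 probes differ on a basal signal in WT kidney, since the second was well above background in 1 of 4 WT mice. The second probe was dimmer, with -4.58, -6.93, -7.00 and -5.70 in WT, -4.01, -4.65, -6.42 and -6.85 in Sting gt/gt, 0.79, -1.91, -2.93 and 0.56 in Fcgr2b-/-, and -2.37, -2.65, -2.72 and -3.63 in Fcgr2b-/-.Sting gt/gt. There the gap between the deficient mice and the others was 0.38, and 8 of 8 against 3 of 8 arrays were well above background. Both probes place Fcgr2b-/- replicates 1 and 4 highest of the 16 mice.

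Clec4e, the receptor Mincle, followed the pattern of Fpr1. Levels were -4.98, -7.46, -7.15 and -7.82 in WT, -5.52, -6.33, -7.26 and -7.24 in Sting gt/gt, 1.82, -2.40, -1.87 and 0.41 in Fcgr2b-/-, and -2.34, -2.38, -2.23 and -2.92 in Fcgr2b-/-.Sting gt/gt. No deficient mouse overlaps any other mouse, with a gap of 2.05, and the double-deficient mice are tightly grouped (standard deviation 0.31, against 1.97 in Fcgr2b-/-). WT replicate 1 is the 1 mouse of the 8 with intact Fcgr2b in which Clec4e was well above background.

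Clec4d, the partner MCL, read -3.42, -5.90, -7.04 and -6.40 in WT, -4.84, -5.59, -4.33 and -6.24 in Sting gt/gt, 1.99, -2.68, -2.75 and -0.01 in Fcgr2b-/-, and -3.56, -2.27, -2.91 and -3.29 in Fcgr2b-/-.Sting gt/gt. Here WT replicate 1 lies above the lowest double-deficient mouse, and 3 of the 8 mice with intact Fcgr2b were well above background, against 8 of 8 without it. Clec4n, the mannan receptor Dectin-2, was well above background in all 16 mice, with -1.64, -3.82, -4.31 and -3.83 in WT, -2.41, -3.04, -3.38 and -4.22 in Sting gt/gt, 3.52, -0.87, -1.41 and 1.30 in Fcgr2b-/-, and -1.24, -1.11, -1.69 and -2.14 in Fcgr2b-/-.Sting gt/gt. Again WT replicate 1 reaches into the double-deficient range.

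**Figure D1:**
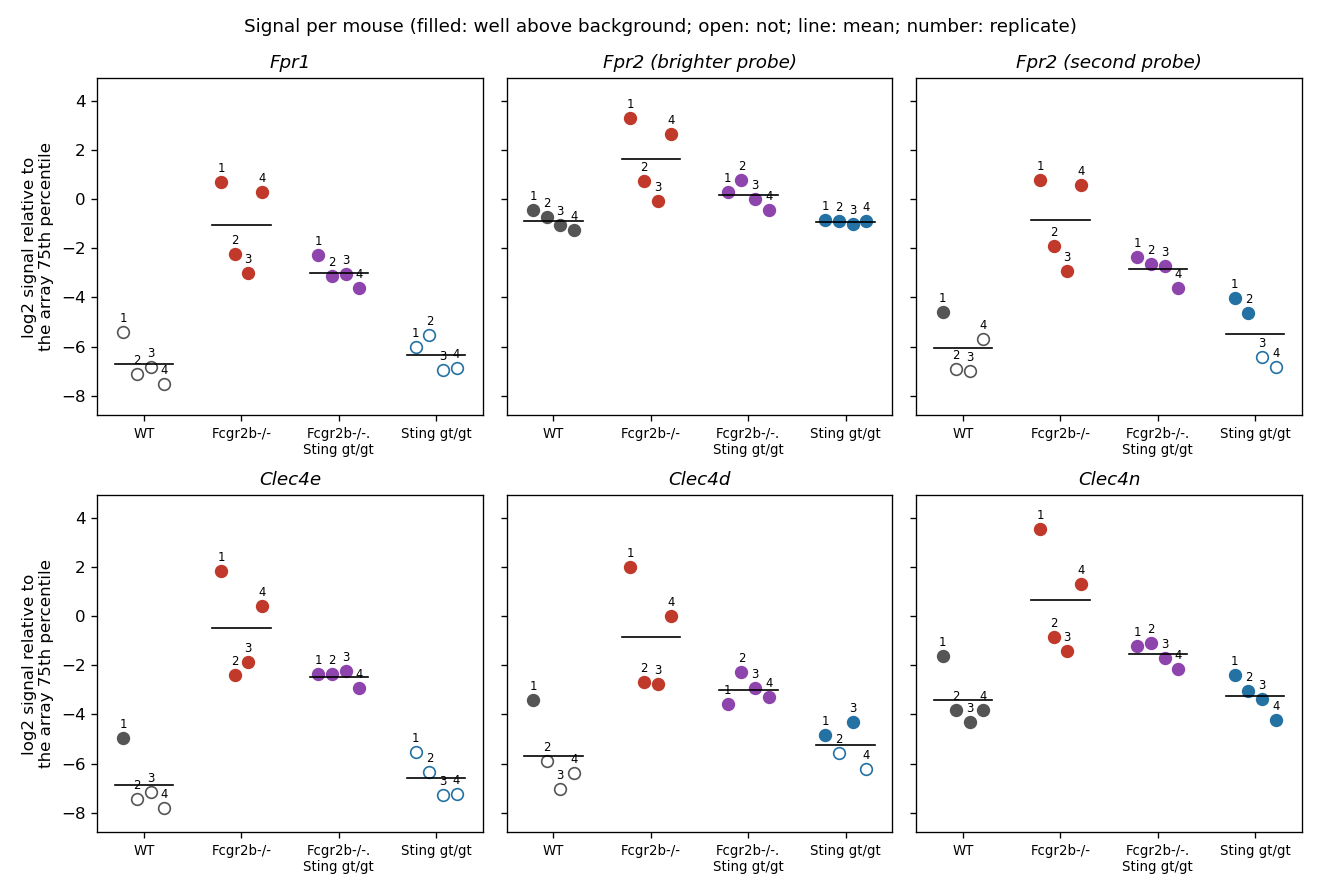
Log2 signal relative to the array 75th percentile for each probe of the receptor genes, 4 mice per genotype; filled points are well above background, lines are group means and small numbers are replicates. Fcgr2b-/- replicates 1 and 4 lie highest in each panel, and WT replicate 1 reaches into the Fcgr2b-/-.Sting gt/gt range for Clec4d and Clec4n.

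One order of group means holds for the 6 probes: Fcgr2b-/- highest, Fcgr2b-/-.Sting gt/gt next, then WT and Sting gt/gt close together. Fpr1 means were -1.08, -3.03, -6.34 and -6.72 in Fcgr2b-/-, Fcgr2b-/-.Sting gt/gt, Sting gt/gt and WT, with standard deviations of 1.82, 0.57, 0.68 and 0.92. Clec4e means were -0.51, -2.47, -6.59 and -6.85 (standard deviations 1.97, 0.31, 0.83 and 1.28), and Clec4n means were 0.64, -1.54, -3.26 and -3.40 (2.25, 0.47, 0.76 and 1.20). The last 2 places do not differ beyond their spread for any probe, and the Fpr2 brighter probe puts WT (-0.88) ahead of Sting gt/gt (-0.92). The first 2 places overlap. Fcgr2b-/- mice lying above the highest double-deficient mouse numbered 3 of 4 for Fpr1, Clec4e, Clec4n and the second Fpr2 probe and 2 of 4 for Clec4d and the brighter Fpr2 probe, and for each probe replicates 1 and 4 were among them.

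The contrast that chose the genes is described without a test. Mean Fcgr2b-/- minus WT log2 differences were 5.65 for Fpr1, 2.52 and 5.18 for the brighter and second Fpr2 probes, 6.34 for Clec4e, 4.83 for Clec4d and 4.04 for Clec4n, with no overlap of the groups for any of the 6 probes. Fold changes against a group with 0 of 4 mice well above background are given as bounds: the mean of the brighter group is set against a stand-in for each dim array, which is the dimmest signal still called well above background on it, or the probe's own signal if higher. On that footing Fpr1 was at least 17.8-fold higher in Fcgr2b-/- than in WT. All such bounds hold for the signals as processed by the scanner software: with limma's normexp background correction the Fcgr2b-/- minus WT log2 differences were 2.41 for Fpr1, 2.58 for the second Fpr2 probe, 3.14 for Clec4e and 2.50 for Clec4d. Across the array, limma called 16 of 35628 tested probes in this contrast (0.0449 percent) by its usual pair of limits, a Benjamini-Hochberg adjusted p below 0.05 together with a 2-fold difference. A further reading of the same contrast gives 1176 probes (3.3 percent) at an unadjusted p under 0.05 and 223 (0.626 percent) with every Fcgr2b-/- mouse above every WT mouse. These shares stand for scale alone, since the rule used this contrast.

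Fcgr2b-/-.Sting gt/gt against Sting gt/gt shares no array with the contrast in which the genes were seen higher: both groups lack STING function, and they differ in Fcgr2b and strain. Earlier results from all 16 arrays were known when the genes were chosen, so the p-values below are a description and not independent support. In it every double-deficient mouse lay above every Sting gt/gt mouse for each of the 6 probes, with gaps of 1.90 for Fpr1, 0.40 and 0.38 for the Fpr2 probes, 2.60 for Clec4e, 0.77 for Clec4d and 0.27 for Clec4n. Of all tested probes, 503 (1.41 percent) show that separation upward, and 76 (0.213 percent) show it with a mean difference of at least 2-fold, as these 6 do. An exact permutation test over the 70 ways of dividing the 8 mice gives p = 0.029, unadjusted, for each probe. This is the smallest value that 4 against 4 mice allow, so it restates the separation and adds no support to it. Fpr1, Clec4e and the second Fpr2 probe passed the filter on dim probes, which asks for 4 or more arrays of the 16 well above background, with 8, 9 and 11 arrays, and Clec4d with 11. Fpr1 thus passed through its deficient mice alone, and Clec4e through those and 1 WT mouse. Each of the 6 probes was well above background in 4 of 4 Fcgr2b-/- mice, which alone meets the filter, whatever the 8 mice compared here read.

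By gene, the mean log2 difference of Fcgr2b-/-.Sting gt/gt over Sting gt/gt was 4.12 for Clec4e (limma standard error 0.81, 95% interval 2.40 to 5.84). As a bound, Clec4e was at least 6.93-fold higher. Fpr1 differed by 3.32 (0.72; 1.79 to 4.85), at least 4.56-fold, and was well above background on 4 of 4 and 0 of 4 arrays, as was Clec4e; 8 of 56605 probes (0.0141 percent) show that split. The second Fpr2 probe differed by 2.64 (0.84; 0.86 to 4.42) and the brighter by 1.07 (0.55; -0.10 to 2.25), a 2.1-fold difference of levels measured in all 8 mice. Clec4d differed by 2.24 (0.94; 0.23 to 4.25) and Clec4n by 1.72 (0.86; -0.12 to 3.56), or 3.29-fold. Intervals for Fpr1, Clec4e, Clec4d and the second Fpr2 probe lie above 0, while those for the brighter Fpr2 probe and Clec4n include it.

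None of these 6 probes passed limma's array-wide threshold in Fcgr2b-/-.Sting gt/gt against Sting gt/gt. Unadjusted limma p-values were 0.000123 for Clec4e, 0.000323 for Fpr1, 0.00653 and 0.0712 for the second and brighter Fpr2 probes, 0.0312 for Clec4d and 0.0654 for Clec4n, and every Benjamini-Hochberg limma adjusted p was 0.89. In this contrast limma called 0 of 35628 probes (0 percent), although 1092 (3.07 percent) had an unadjusted p under 0.05 and 170 had an unadjusted Mann-Whitney p under 0.05 with a 2-fold change. limma's spread comes from all 16 arrays, including the variable Fcgr2b-/- group and the WT arrays of the contrast that chose the genes. These limma p-values and intervals therefore do not rest on the 8 compared mice alone. For Fpr1 and Clec4e they also rest on Sting gt/gt signals with 0 of 4 mice well above background. Fitted on the 8 compared mice alone, Clec4e passed with a limma adjusted p of 0.0385, as 1 of 2 probes called, and Fpr1 had 0.119. That fit, too, rests on Sting gt/gt signals with 0 of 4 mice well above background, and it is a description like the rest. With normexp background correction and all 16 mice, the Clec4e difference was 1.39 (limma adjusted p = 0.972).

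Array slide moves with genotype. Each slide holds 8 arrays, with WT and Sting gt/gt split 2 and 2, Fcgr2b-/- 3 and 1 (replicate 3 on the second slide), and Fcgr2b-/-.Sting gt/gt 1 and 3 (replicate 1 on the first). With slide as a block, the difference of Fcgr2b-/-.Sting gt/gt over Sting gt/gt was 3.65 for Fpr1, 1.25 and 3.03 for the Fpr2 probes, 4.41 for Clec4e, 2.49 for Clec4d and 2.06 for Clec4n. Within the first slide the same values were 3.51, 1.17 and 1.96, 3.59, 1.65 and 1.49, and within the second 3.63, 1.07 and 3.63, 4.74, 2.46 and 2.15. All 6 probes thus keep the sign within each slide. The size depends on how background is handled, and the bounds given above do not hold under another handling: with normexp, which compresses dim signals, the difference was 0.87 for Fpr1, 0.98 and 0.82 for the Fpr2 probes, 1.39 for Clec4e, 0.79 for Clec4d and 1.01 for Clec4n.

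Fcgr2b-/-.Sting gt/gt and Fcgr2b-/- kidneys differ by Sting genotype on the Fcgr2b-deficient background. This contrast and those below share arrays with the choice of the genes: picking genes that are high in Fcgr2b-/- and low in WT favours lower values in other groups than in Fcgr2b-/- and higher ones than in WT. They are therefore a description of the receptors, with no test. Fcgr2b-/-.Sting gt/gt minus Fcgr2b-/- was -1.95 for Fpr1, -1.49 and -1.97 for the Fpr2 probes, -1.96 for Clec4e, -2.14 for Clec4d and -2.18 for Clec4n. The groups overlap for each probe, because Fcgr2b-/- replicates 2 and 3 lie near or within the double-deficient range. Of tested probes, 111 (0.312 percent) have every double-deficient mouse below every Fcgr2b-/- mouse, and no receptor probe is among them. limma called 0 probes here (0 percent), while 625 (1.75 percent) had an unadjusted limma p below 0.05 and 38 differed 2-fold with an unadjusted Mann-Whitney p below 0.05.

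The size of these lower means varies with slide and with single mice. With slide as a block the differences were -1.28 for Fpr1, -1.13 and -1.20 for the Fpr2 probes, -1.38 for Clec4e, -1.65 for Clec4d and -1.50 for Clec4n. Within the first slide, which holds Fcgr2b-/- replicates 1, 2 and 4 but 1 double-deficient mouse, they were -1.83, -1.91 and -2.19, -2.28, -3.33 and -2.55. Within the second, which holds Fcgr2b-/- replicate 3 alone, they were -0.28, 0.18 and -0.08, -0.64, -0.08 and -0.24, so the difference nearly vanishes there and turns for the brighter Fpr2 probe. A group with 1 mouse on a slide is assumed by limma to vary like the others. Leaving out 1 mouse at a time moved the Fpr1 difference between -2.59 and -1.37, and that of Clec4e between -2.59 and -1.18. The ranges were -2.06 to -0.94 and -2.66 to -1.42 for the brighter and second Fpr2 probes. For Clec4d the range was -2.77 to -1.19, and for Clec4n -2.86 to -1.22.

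Double-deficient kidneys had higher mean levels than WT kidneys for every receptor probe. Fcgr2b-/-.Sting gt/gt minus WT was 3.69 for Fpr1, 1.03 and 3.21 for the Fpr2 probes, 4.38 for Clec4e, 2.68 for Clec4d and 1.86 for Clec4n. The median over the 5 genes was 2.68, and 1.49 within the first slide and 3.90 within the second. Among the alternative settings the lowest values were 0.95 for Fpr1, 1.43 for Clec4e and 0.77 for Clec4d. Every double-deficient mouse lies above every WT mouse for Fpr1, both Fpr2 probes (by 0.02 for the brighter) and Clec4e, whereas WT replicate 1 overlaps for Clec4d and Clec4n. Fpr1 was at least 4.6-fold higher. Across the array 111 probes (0.312 percent) separate upward here, and limma called 0 (0 percent), while 149 (0.418 percent) had an unadjusted limma p below 0.05 and 58 differed 2-fold with a Mann-Whitney p, unadjusted, below 0.05.

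In mice with intact Fcgr2b, Sting genotype separated no receptor probe. Sting gt/gt minus WT was 0.38 for Fpr1, -0.04 and 0.57 for the Fpr2 probes, 0.26 for Clec4e, 0.44 for Clec4d and 0.14 for Clec4n. Both groups overlap for all 6 probes. Fpr1 was well above background in 0 of 4 mice of each group, and Clec4e in 1 of 4 WT and 0 of 4 Sting gt/gt mice. Their differences thus lie between signals at or near background and cannot show whether Sting genotype separates these genes. limma called 0 probes (0 percent), while 1329 (3.73 percent) reached an unadjusted limma p below 0.05, and Mann-Whitney without adjustment gave 117 with a 2-fold difference. The interaction is Fcgr2b-/-.Sting gt/gt minus Sting gt/gt, less the difference of Fcgr2b-/- minus WT. It so contains the whole contrast that chose the genes, which favours a negative sign. As values alone it was -2.33 for Fpr1, -1.45 and -2.54 for the Fpr2 probes, -2.22 for Clec4e, -2.58 for Clec4d and -2.32 for Clec4n. Its size depends on slide: the median over the 5 genes was -2.32, and -1.64 with slide as a block. Within the first slide that median was -2.56, and within the second -0.55. For the second Fpr2 probe the interaction turned to 0.21 within the second slide. Across the array limma called 0 of the 35628 probes for it (0 percent), with 2221 (6.23 percent) at an unadjusted limma p under 0.05; a Mann-Whitney test has no form for it.

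**Figure D2:**
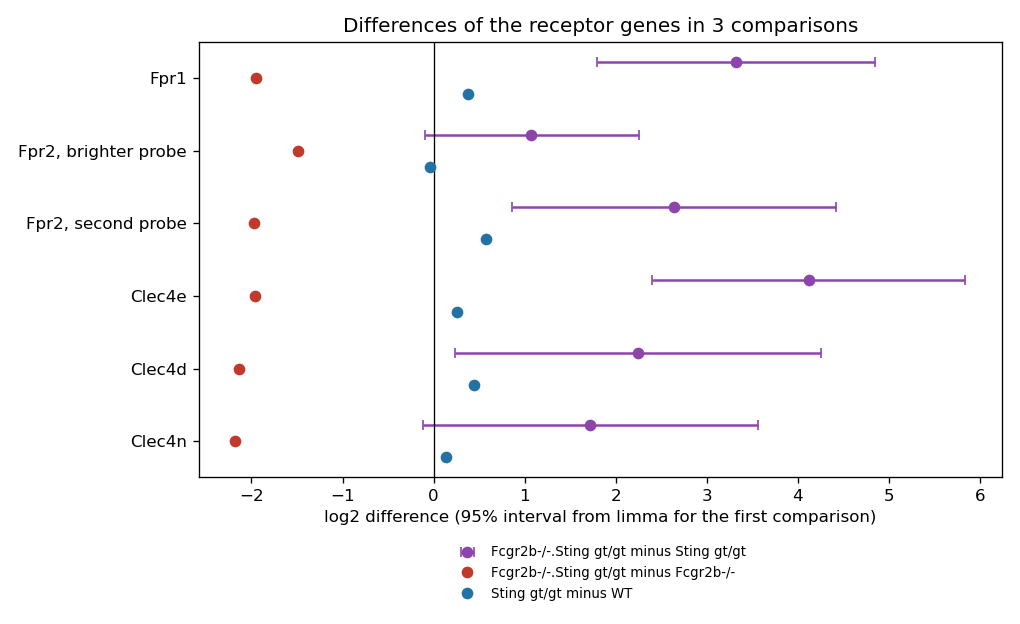
Log2 difference of each receptor probe in 3 comparisons, with the 95% interval from limma over 16 mice for the 1 comparison that shares no array with the contrast in which the genes were seen higher. Values are above 0 for Fcgr2b-/-.Sting gt/gt against Sting gt/gt, below 0 for Fcgr2b-/-.Sting gt/gt against Fcgr2b-/-, and near 0 for Sting gt/gt against WT.

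Across the 16 mice the 5 receptor genes were high and low together. Correlations of their levels ranged from 0.91 (Fpr2 with Clec4e) to 0.99 (Fpr1 with Clec4e) over the 10 pairs, and from 0.76 to 0.94 after each genotype's mean was removed. Mean levels of the 5 genes relative to the WT mean were 6.96, 3.21, 2.89 and 5.63 in Fcgr2b-/-, 2.89, 3.08, 2.73 and 2.22 in Fcgr2b-/-.Sting gt/gt, 0.78, 0.43, 0.12 and -0.38 in Sting gt/gt, and 1.53, -0.30, -0.57 and -0.66 in WT. Fcgr2b-/- replicates 1 and 4 are the highest mice, and WT replicate 1 is the highest mouse with intact Fcgr2b. Kidney epithelium markers, as a mean relative to WT, were lowest in Fcgr2b-/- replicate 1 (-0.73) and WT replicate 1 (-0.53), but 0.09 in Fcgr2b-/- replicate 4. The pairs share their 16 arrays, and the genes were picked for 1 shared difference, so these correlations are a description.

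Partners of the receptors were then read from lists of related genes. For the formyl peptide receptors, 0 of 5 relatives passed the filter on dim probes, and 4 of 6 ligand genes did. Saa3, an acute-phase serum amyloid A, was well above background in 0 of 4 WT and 2 of 4 Fcgr2b-/- mice. Its levels were -0.78, -6.20, -7.53 and -1.93 in Fcgr2b-/-, so within that group replicates 1 and 4, which have the highest receptor values, carry it. Saa3 was also well above background in 2 of 4 Sting gt/gt mice (levels -5.13, -5.34, -6.94 and -6.87). The same held for 1 of 4 Fcgr2b-/-.Sting gt/gt mice (-7.18, -4.22, -6.39 and -7.55). It differed by 2.78 in Fcgr2b-/- against WT and by -0.27 in Fcgr2b-/-.Sting gt/gt against Sting gt/gt. Anxa1, annexin A1, differed by 1.39 on the log2 scale in Fcgr2b-/- against WT and by 0.16 in Fcgr2b-/-.Sting gt/gt against Sting gt/gt, called here the double-deficient comparison. The signalling list held Gi subunits, effectors and arrestins, and also other chemoattractant receptors such as Ptafr, which are not downstream of Fpr1 and Fpr2. Its genes were higher in Fcgr2b-/- than in WT in 16 of 16 cases, with 0 called by limma and 8 at an unadjusted limma p below 0.05. In the double-deficient comparison 5 of 16 were higher, with 0 called and 1 at that unadjusted p. Over all tested probes, 3.3 and 3.07 percent had an unadjusted limma p below 0.05 in these comparisons. The signalling genes had median log2 differences of 1.29 and -0.31, against -0.04 and 0.00 over all tested probes. Pik3r5, a regulatory subunit of the phosphoinositide kinase below such receptors, gave 2.92 (limma adjusted p = 0.619) and 1.24, and Ptafr, the receptor for platelet-activating factor, 2.56 (0.805) and 0.54. For the NADPH oxidase that the receptors drive, 4 of 5 subunit genes were higher in each of these comparisons (limma called 0, with 3 and 0 at an unadjusted p below 0.05), with medians of 1.97 and 0.15, and Ncf4 gave 2.53 (limma adjusted p = 0.436) and 0.26, and Cybb, the catalytic subunit, 2.10 (1) and 0.36.

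On the lectin side, lists for the neighbouring lectins and the pathway below Mincle and Dectin-2 were read in the same comparisons. Neighbouring lectin genes were higher in Fcgr2b-/- than in WT in 9 of 9 tested cases (of 13 listed), median 0.85, and in 6 of 9 in Fcgr2b-/-.Sting gt/gt against Sting gt/gt, median 0.27. Clec4a3 gave 3.57 (limma adjusted p = 0.416) and 1.47, and Clec4a1 gave 3.53 (0.199) and 0.77. Among the 15 tested of 17 ITAM and CARD9 pathway genes, 14 were higher in Fcgr2b-/- and 7 in the double-deficient comparison, medians 0.47 and -0.12; Fcer1g, the gamma chain itself, gave 2.45 (limma adjusted p = 0.707) and 0.64, and Syk gave 2.26 (0.619) and 0.00. Card9, named after its values were seen, was 0.84 higher in the double-deficient mice (standard error 0.32, limma adjusted p = 0.89) without overlap. The lowest double-deficient mouse had -5.10 and the highest Sting gt/gt mouse -5.18, and 1 of 4 Sting gt/gt mice was well above background. Of all tested probes, 503 (1.41 percent) separate in this direction. Card9 means were -5.08 in WT and -4.72 in Fcgr2b-/-. Of 20 CARD9 and NF-kB target genes 11 were tested, with 10 higher in Fcgr2b-/- (median 1.09) and 6 in the double-deficient comparison (median 0.30), among them the transcription factor gene Egr2 at 3.90 (limma adjusted p = 0.363) and -0.02 and the chemokine gene Ccl3 at 3.38 (0.229) and 1.41. limma called 0 genes of these 3 lists in either comparison, while 4, 6 and 4 had an unadjusted p below 0.05 in Fcgr2b-/- against WT and 0, 1 and 0 in the double-deficient comparison. Over all tested probes, 3.3 and 3.07 percent had an unadjusted limma p below 0.05 there. The medians of the double-deficient comparison depend on slide: within the first and the second they were -0.07 and 0.54 for the ligands, -0.35 and -0.06 for the formyl peptide signalling genes, -0.27 and 0.31 for the NADPH oxidase, -0.43 and 0.89 for the neighbouring lectins, -0.03 and 0.04 for the ITAM and CARD9 pathway and -0.13 and 0.30 for the CARD9 targets. With slide as a block they were 0.26, -0.26, 0.20, 0.37, -0.05 and 0.28, so 5 of these 6 lists turn sign between slides. In Fcgr2b-/- against WT, with 1 Fcgr2b-/- mouse on the second slide, the ligands gave 1.44 and 0.14 within the slides. In the same order of lists, the others gave 1.34 and 0.74, 1.91 and 1.10, 1.02 and 0.93, 0.92 and 0.15, and 1.27 and 0.76.

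Marker genes of the cells that carry the receptors were read in the same 16 mice. In bulk tissue, fewer cells of a type and less RNA per cell cannot be told apart. Patrolling monocyte markers had a median log2 difference of 1.89 in Fcgr2b-/- against WT (10 of 12 higher) and 0.39 in Fcgr2b-/-.Sting gt/gt against Sting gt/gt (8 of 12 higher). Cd300e and Ear2 of that list were called by limma in Fcgr2b-/- against WT, at 4.57 (limma adjusted p = 0.0352) and 4.58 (0.0349), and gave 2.46 and 2.33 in the double-deficient comparison, where they did not pass. These calls do not hold throughout: limma called 0 probes in Fcgr2b-/- against WT when those 2 groups alone were fitted, within the second slide, without WT replicate 2, 3 or 4 or Fcgr2b-/- replicate 4, and among probes well above background on all 16 arrays, as Ear2 is. Macrophage markers gave medians of 2.27 (9 of 10 higher) and 0.23 (7 of 10), with the mannose receptor Mrc1 at 2.69 (limma adjusted p = 1) and -0.23 and Adgre1, a classic macrophage surface antigen, at 2.57 (0.874) and 0.56. Classical monocyte markers gave 1.21 (9 of 12) and 0.23 (10 of 12), with Lyz2, lysozyme, at 3.22 (limma adjusted p = 0.499) and 1.74 and Chil3 at 3.15 (0.854) and 1.03. Neutrophil markers gave 0.77 (11 of 12) and 0.13 (6 of 12), with S100a8 at 1.48 (limma adjusted p = 1) and 1.13 and S100a9 at 1.36 (1) and 0.89. No gene of these 4 lists was called in the double-deficient comparison, in which 3 patrolling, 1 classical, 1 neutrophil and 0 macrophage markers had an unadjusted limma p under 0.05. In Fcgr2b-/- against WT that held for 9 of 12 patrolling, 4 of 12 classical, 1 of 12 neutrophil and 9 of 10 macrophage markers. Over all tested probes the shares were 3.07 percent in the double-deficient comparison and 3.3 percent in Fcgr2b-/- against WT.

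Mouse by mouse, the mean log2 levels of the macrophage and patrolling monocyte lists are highest in Fcgr2b-/- replicates 1 and 4, as those of the receptors are, but the summed levels of the patrolling list are not. This is not particular to these lists. T cell markers (2.20 and 1.44 relative to WT) and dendritic cell markers (1.64 and 1.23) also had their highest means in those mice. Macrophage markers, as a mean relative to WT, were 3.15, 0.96, 0.68 and 2.93 in Fcgr2b-/-, 0.57, 1.26, 0.57 and 0.11 in Fcgr2b-/-.Sting gt/gt, 1.31, 0.31, 0.07 and -0.02 in Sting gt/gt and 1.17, -0.69, -0.53 and 0.06 in WT. Patrolling monocyte markers were 2.90, 1.02, 1.29 and 2.56, then 0.81, 1.16, 1.06 and 0.89, then 0.85, 0.02, 0.05 and 0.22, then 0.96, -0.32, -0.49 and -0.15 in the same order of groups. In both lists WT replicate 1 and Sting gt/gt replicate 1 reach the double-deficient range. Among the receptors WT replicate 1 reaches it for Clec4d and Clec4n, but not for Fpr1 or Clec4e, which lie at or near background there. Cd300e, Treml4 and Ear2 of the patrolling list also place every Fcgr2b-deficient mouse above every other mouse, with gaps of 0.98, 0.52 and 0.44. Summed levels, which the brightest genes dominate, were 105, 32.1, 30.9 and 95.5 for macrophage markers in Fcgr2b-/-, 28.3, 30.2, 28.5 and 27.3 in Fcgr2b-/-.Sting gt/gt, 34.6, 23.3, 27.6 and 26.3 in Sting gt/gt and 27.3, 21.3, 20.7 and 20.3 in WT. For patrolling monocyte markers they were 87.8, 20.3, 25.0 and 44.1, then 19.2, 44.2, 23.5 and 29.4, then 50.4, 17.0, 36.9 and 19.1, then 102, 26.2, 12.9 and 14.5, so WT replicate 1 is highest and Sting gt/gt replicate 1 lies above Fcgr2b-/- replicate 4. The sum of WT replicate 1 is carried by Fabp4 and Cd36, with log2 levels of 6.27 and 4.31. Cd300e, Treml4 and Ear2 had -3.29, -2.80 and -1.33 in that mouse. Neutrophil marker sums were 63.1, 29.1, 58.3 and 40.8, then 30.1, 52.1, 51.0 and 41.6, then 36.3, 41.7, 51.5 and 112, then 46.7, 29.6, 37.2 and 36.1, where Sting gt/gt replicate 4 is highest through the brightest gene, Csf3r (6.76 there). As a mean relative to WT the neutrophil markers were instead highest in Fcgr2b-/- replicate 1, with 1.95, -0.35, 0.46 and 1.02 in Fcgr2b-/-, 0.05, 0.74, 0.31 and 0.00 in Fcgr2b-/-.Sting gt/gt, 0.52, -0.40, 0.24 and -0.11 in Sting gt/gt and 1.10, -0.48, -0.13 and -0.49 in WT. Brightest in these 3 lists were Csf1r, Fabp4 and Csf3r, with WT means of 3.84, 3.64 and 4.95.

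Some defining markers were missing from the signal altogether. Of the neutrophil list, Ngp was well above background on no array and Ly6g has no probe, and cathepsin G (Ctsg), listed with the ligands, was on no array either. Vsig4 of the macrophage list and Epx and Ccr3 of the eosinophil list were also on no array. With slide as a block the double-deficient medians were 0.49 for patrolling monocyte, 0.38 for macrophage, 0.33 for classical monocyte and 0.14 for neutrophil markers. Within the first slide they were 0.17, -0.09, -0.04 and -0.05, and within the second 0.69, 0.67, 0.48 and 0.30. The part of these cells in the receptor values was not tested. T cell markers had a double-deficient median of -0.36 (0.97 in Fcgr2b-/- against WT), B and plasma cell markers -0.09 (0.31), dendritic cell markers -0.33 (0.58), red cell genes -0.41 (-0.36), and kidney epithelium 0.09 (-0.13). Within the first and second slides these medians were -1.38 and 0.23, -1.40 and 0.44, -0.54 and -0.04, 0.02 and -0.67, and 0.33 and 0.04. Eosinophil markers, with 3 of 7 tested, gave 0.33 (-0.37 and -0.18 within the slides) and 0.28, and Ear1 alone of them was called in Fcgr2b-/- against WT (4.79, limma adjusted p = 0.0349), a call also lost when those 2 groups alone were fitted. Medians of Fcgr2b-/- against WT depend on slide too, and the second slide holds 1 Fcgr2b-/- mouse. Within the first and second slides they were 1.36 and -0.28 for T cell and 0.25 and -0.20 for kidney epithelium markers. Macrophage markers gave 2.51 and 0.96 there, and classical monocyte markers 1.19 and 0.26. Patrolling monocyte markers gave 2.20 and 1.38, and neutrophil markers 0.55 and 0.77.

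**Figure D3:**
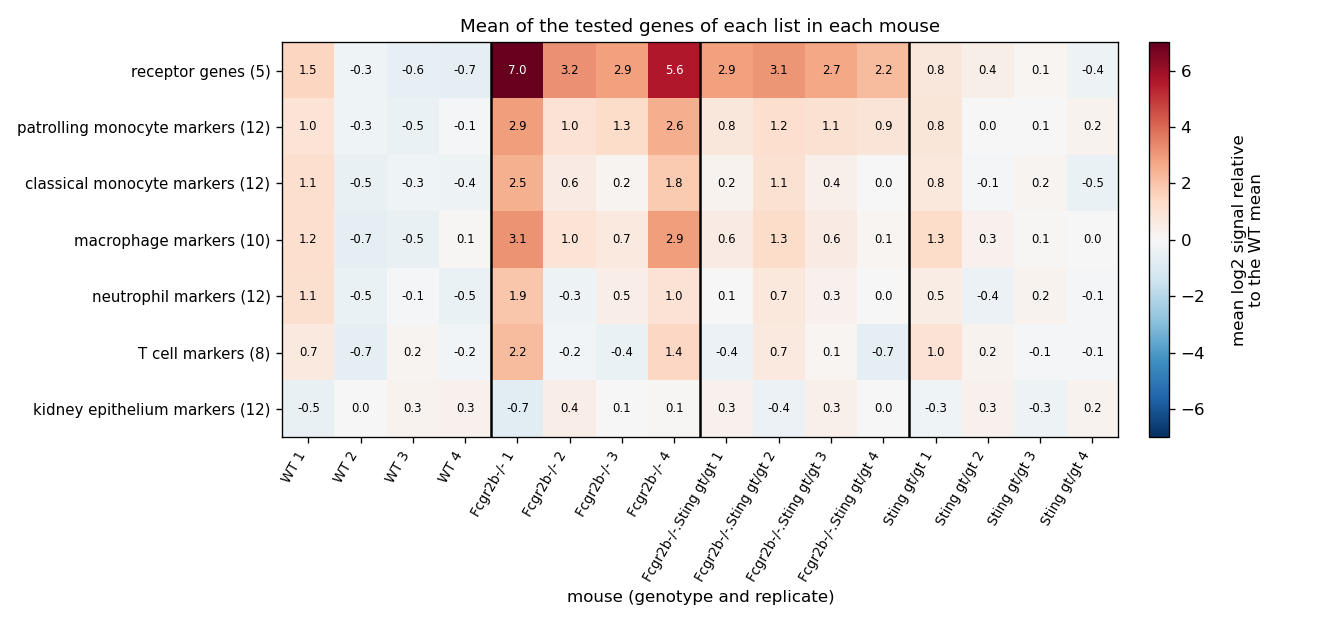
Mean log2 signal of each gene list relative to its WT mean, for each of the 16 mice grouped by genotype; the number of genes averaged is in brackets. Fcgr2b-/- replicates 1 and 4 have the highest means of the receptor, patrolling monocyte, classical monocyte and macrophage lists, and heights are not comparable between lists, because the receptor genes were chosen for being low in WT.

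Genes whose levels across the 16 mice were most like the mean standardized level of the 5 receptor genes were ranked by correlation among 16387 genes. The first 10 were Ear2 (0.98), Ear10 (0.977), Treml4 (0.977), Rnase2a (0.975), Adgre4 (0.963), Cd300e (0.961), Acod1 (0.959), Ear1 (0.959), Pilra (0.957) and Ms4a6d (0.955). Ear2, Ear10, Rnase2a and Ear1 are close paralogs of the eosinophil-associated ribonuclease family, whose probes need not separate them. Treml4 and Cd300e are known on patrolling monocytes, and Acod1 makes itaconate in activated macrophages. Within genotypes the likeness to the receptors ranged from 0.815 (Ear1) to 0.934 (Pilra), and without Fcgr2b-/- replicates 1 and 4, the 2 mice farthest from the median, from 0.889 (Pilra) to 0.966 (Ear2). Since these genes were picked as the highest over all 16 mice, the later values support nothing about the correlation.

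Acod1, like Fpr1, was well above background in 8 of 8 deficient mice and 0 of 8 others, so the size of its differences rests on signals at background. Ear2, Treml4 and Pilra, measured in all 16 mice, gave 2.33, 1.78 and 1.27 in Fcgr2b-/-.Sting gt/gt against Sting gt/gt, where the 2 receptor probes measured in all 16, the brighter Fpr2 probe and Clec4n, gave 1.07 and 1.72. The others were above background in part of the mice with intact Fcgr2b and gave 2.75 for Ear1, 2.53 for Rnase2a, 2.46 for Cd300e, 2.37 for Adgre4, 2.25 for Ms4a6d and 2.16 for Ear10.

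**Figure D4:**
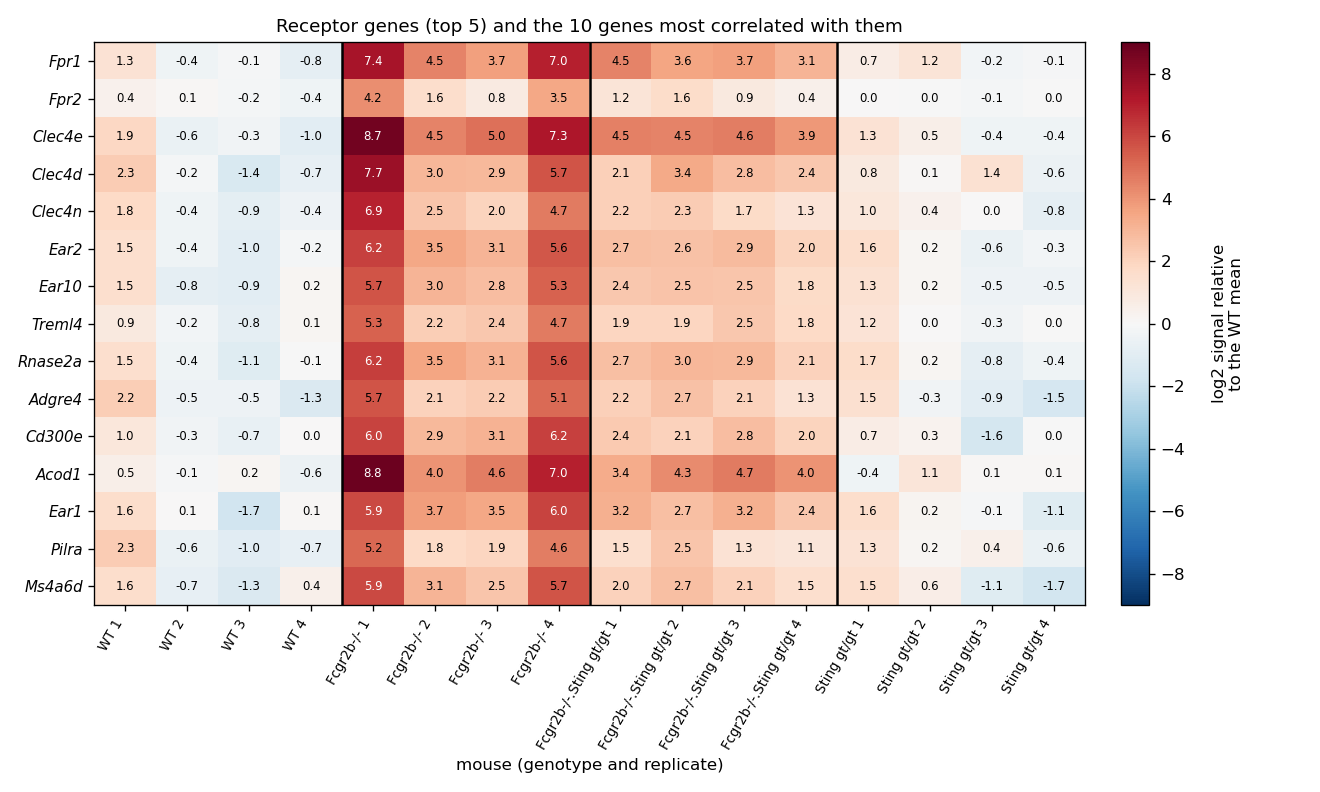
Log2 signal relative to the WT mean for the 5 receptor genes (top) and the 10 genes most correlated with their mean, in each of the 16 mice grouped by genotype. Each gene shown is highest in Fcgr2b-/- replicates 1 and 4.

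A last count sets the 8 Fcgr2b-deficient mice against the 8 others, whatever their Sting genotype. It includes the arrays that chose the genes and is given with no test. Every deficient mouse lies above every other mouse for 20 of 35628 probes (0.0561 percent), and Fpr1, Clec4e and both Fpr2 probes are among them. The gap is 2.29 for Acod1, 2.05 for Clec4e, 1.78 for Fpr1, 0.98 for Cd300e, and 0.38 and 0.02 for the Fpr2 probes, and those of Acod1, Fpr1 and Clec4e depend on signals near background in the other mice. Clec4d and Clec4n are absent from these 20 because of WT replicate 1. The same split is the split by strain background.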

How the data were processed

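Whole-kidney RNA of 16 mice was measured on one-color Agilent arrays. Per the file headers, the deposited scanner files hold spot intensity from Agilent Feature Extraction 11.0, background-corrected by that software, with other columns for its calls on each spot. The authors' table holds log2 values normalized by them: each column is nearest its own scanner file, and the 4 columns of a replicate number share 1 distribution (largest difference 0.00077), with medians of 5.54, 4.93, 5.145 and 5.384 for replicates 1 to 4. How it was made beyond that is unknown, and no centring was found.

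From the scanner files, log2 processed signal minus the log2 75th percentile of 59305 non-control spots was computed per array, outlier spots were dropped (76 to 109 per array, 0 saturated) and spots of a probe were averaged. Array brightness at that percentile ran from 387.6 to 951.1, and 28441 to 35564 probes were well above background. Probes above background on at least 4 of 16 arrays were tested (35628 of 56605) with limma 3.58.1 in R 4.3.3, 1 mean per genotype, and called at an adjusted p (Benjamini-Hochberg) below 0.05 with a 2-fold difference. The script was tested on simulated data. Other steps used Python 3.11.15, pandas 2.3.3, numpy 2.4.6, scipy 1.17.1 and matplotlib 3.10.9. Names came from the annotated transcripts through RefSeq (GRCm38.p6), and 58.3 percent of probes got one. A list gene is read from its brightest probe. Same-numbered arrays were not treated as pairs in the main fit. After genotype means were removed, 5 of 16 arrays correlated best with an array of their own number among the other genotypes. With so few arrays this check cannot decide whether the numbers mark pairs.

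Named genes are the receptor genes, Fcgr2b and Sting1, from the lists any gene called, the 2 with the largest Fcgr2b-/- minus WT difference and the brightest, and the 10 genes most correlated with the receptors' mean; exceptions are marked in the text. The receptor genes and the lists were chosen with earlier results of these data known. Alternatives were normexp background correction (from median spot signals, since mean signals were not used here), quantile and median scaling, the authors' table, other filters, the median of a gene's probes, fits on the compared groups alone, slide as a block and within each slide, a replicate block, the Mann-Whitney test and leaving out each mouse. With 4 mice per genotype, small differences cannot be resolved.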

Additional observations from a re-analysis of the deposited data

How the results depend on the processing

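Signals of Fpr1, Clec4e, Clec4d and the second Fpr2 probe lie near background in WT and Sting gt/gt mice, which limits the size of any fold there. In each alternative that gave a value, all 6 receptor probes stayed higher in Fcgr2b-/-.Sting gt/gt than in Sting gt/gt. Receptor values of Fcgr2b-/- minus WT are described with no test, so they were judged by direction and size alone, and the others by direction and side of limma's threshold. On that footing 351 values were kept when no mouse was left out, 9 moved by more than the spread of the mice, 10 reversed and 2 came to pass the threshold. With 1 mouse left out, 568 kept and 8 reversed. No receptor probe had passed the threshold in those other comparisons, so a much smaller value of the same sign still counts as kept. An example is Fpr1 in Fcgr2b-/-.Sting gt/gt minus Sting gt/gt, with 0.87 under normexp and 3.32 reported. The kept counts thus do not speak to size there. Where a value below differs from the one reported, the cause was not tested.

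Clec4e came to pass in Fcgr2b-/-.Sting gt/gt against Sting gt/gt when only those groups were fitted (4.12, limma adjusted p = 0.0385) and in the contrast with WT, which shares arrays with the choice of the genes, within the second slide (4.98). Both passes set Clec4e against groups where its signal lies at or near background, and are a description. The 9 that moved are all Fcgr2b-/- minus WT: Fpr1 2.41, the second Fpr2 probe 2.58, Clec4e 3.14 and Clec4d 2.50 with normexp, Fpr1 4.18, Fpr2 1.08, the second Fpr2 probe 3.42 and Clec4n 2.66 within the second slide, and Fpr2 3.85 by the median of its probes. Reversed values were Fpr2 in Fcgr2b-/-.Sting gt/gt minus Fcgr2b-/- within the second slide (0.18) and, in Sting gt/gt minus WT, Fpr2 within the second slide (0.19), by the median of its probes (0.26) and with 1 mouse left out (-0.16 to 0.10). Also in Sting gt/gt minus WT, Clec4d reversed with normexp (-0.02), within the first slide (-0.56) and with 1 mouse left out (-0.01 to 1.20), and Clec4n with quantile normalization (-0.14), median scaling (-0.10), the authors' table (-0.13) and 1 mouse left out (-0.16 to 0.73). Clec4e reversed there with 1 mouse left out (-0.09 to 0.89), and the second Fpr2 probe within the second slide (-0.29), as did its interaction (0.21).

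Counts of called probes kept within 1.5-fold in 62 cases and moved in 19. Fcgr2b-/- against WT (16) gave 10 with normexp, 7 with the authors' table, 0 when each probe had to be well above background on all 16 arrays, 0 on those groups alone, 65 and 0 within the first and second slides, 144 by the Mann-Whitney test unadjusted and 0 adjusted. Fcgr2b-/-.Sting gt/gt against Sting gt/gt (0) gave 2 on those groups alone and 170 by unadjusted Mann-Whitney, and against Fcgr2b-/- (0) 38 by that test. Against WT (0) it gave 1 with normexp, 1 with the stricter filter, 3 on those groups alone, 1 and 2 within the slides and 58 by Mann-Whitney. Sting gt/gt against WT (0) gave 43 within the first slide and 117 by Mann-Whitney. Leaving out 1 mouse gave 0 to 39 for Fcgr2b-/- against WT, 0 to 1 for Fcgr2b-/-.Sting gt/gt against Sting gt/gt and against WT, and 0 for the others. With a replicate block the first count was 15.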

Other observations

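Besides the receptor probes and the genes named with them, the 20 probes that place all 8 Fcgr2b-deficient mice above all 8 others include more myeloid genes, described here with no test and chosen after their values were seen. Il1rn, the interleukin-1 receptor antagonist, had -5.16 as its lowest deficient mouse and -6.03 as its highest other mouse, with 6 of 8 and 0 of 8 arrays well above background. Gpr84, a receptor for medium-chain fatty acids, had -5.56 and -5.93, with 7 of 8 and 0 of 8. Fgr, a Src-family kinase of myeloid cells, had -4.39 and -4.58, and Cd300a, an inhibitory receptor, had -4.27 and -4.28. Both probes of Ifi202b, an interferon-inducible gene whose expression is known to differ between mouse strains, separate the mice too, at -2.17 and -2.62 and at -2.02 and -2.45, each with 8 of 8 and 2 of 8 arrays well above background. Strain and Fcgr2b genotype coincide in these mice.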
